A study of Mus musculus with 12 samples.

Results

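The 43 genes described here are interferon-stimulated genes together with Eif2ak2, which encodes the double-stranded RNA-activated kinase PKR, and its neighbours in RNA sensing. They were taken by gene symbol, and all 43 symbols were found among the 55450 genes of the table. They comprise 4 nucleic acid sensors, Eif2ak2, the RNA editor Adar, 5 transcription factors, 4 Ifit genes, 6 Oas genes, 12 other antiviral effectors, 6 genes of the ISG15 and PARP systems and 4 interferon-inducible GTPases.

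Type I interferons bind a receptor pair at the cell surface, and receptor-bound kinases then activate a transcription factor complex that contains STAT2 and IRF9 and binds interferon-stimulated response elements in the promoters of such genes. The helicases RIG-I (Ddx58) and MDA5 (Ifih1) detect double-stranded RNA and signal through MAVS to the factors IRF3 and IRF7, which induce the interferons. PKR binds double-stranded RNA, dimerises and phosphorylates the translation initiation factor eIF2, which lowers general protein synthesis and starts the integrated stress response. A human non-coding RNA formerly classed with the vault RNAs is known to bind PKR.

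The RNA came from brains and livers of males, all between 7 and 9 weeks old. The control animals carried the genotype labelled Vaultrc5+/+ (their titles call them flx, and the labels call them wild type), and the knockout animals carried vaultrc5-/-, a deletion of a gene for a small non-coding RNA of the vault particle. No treatment, other allele or strain was given in the labels, and nothing in them says whether a brain and a liver library of the same number came from the same animal. Tissue and genotype made 4 groups of 3 libraries. Since the labels do not describe how the replicates were obtained, p-values measure the spread between these libraries.

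Brain libraries totalled between 14844937 and 18567362 counts, liver libraries between 23247425 and 27155478. A floor of 3 counts corresponds, in CPM (counts divided by the TMM-scaled library size), to 0.123 to 0.148 for brain and 0.1495 to 0.169 for liver, for counting error only. Vaultrc5 itself had 33, 39 and 48 counts in the wild-type livers, 4, 1 and 4 in the wild-type brains, and 0 in all 6 knockout libraries. The summed level of 5 neuronal markers was 3065 to 4100 CPM in brain and 26.7 to 35.4 CPM in liver, and that of 6 hepatocyte markers was 61996 to 93972 CPM in liver and 0.616 to 439 CPM in brain. The brain sum was carried by Ttr, which choroid plexus also expresses: it gave 438 of the 439 CPM in the highest brain library, and it was high in the same 3 brain libraries as the choroid plexus markers. In these whole-tissue RNA samples, fewer cells of a type and less RNA per cell cannot be told apart.

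No member passed the test for a difference between knockout and wild type in either tissue, and none passed the test for a knockout effect that differs between the tissues. In these comparisons edgeR called no gene at all, not even the deleted Vaultrc5. The members differed widely between the tissues: 40 of 43 were higher in liver than in brain, in wild-type and in knockout animals alike, and Adar and Cmpk2 were higher in brain in both genotypes. The median log2 fold change of the members, brain against liver, was -3.61 in wild type and -3.73 in knockout, while the median of all genes tested was 0.21 in both. These values include 9 members that passed the filter through liver, where they are high. Of the 34 that passed in brain, 31 were higher in liver in each genotype, and the medians were -3.55 in wild type and -3.35 in knockout. Ifit2 was the remaining member, not called between the tissues on the TMM scale, while with library totals it was called higher in brain in both genotypes. It was singled out after its values were seen.

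**Figure D1:**
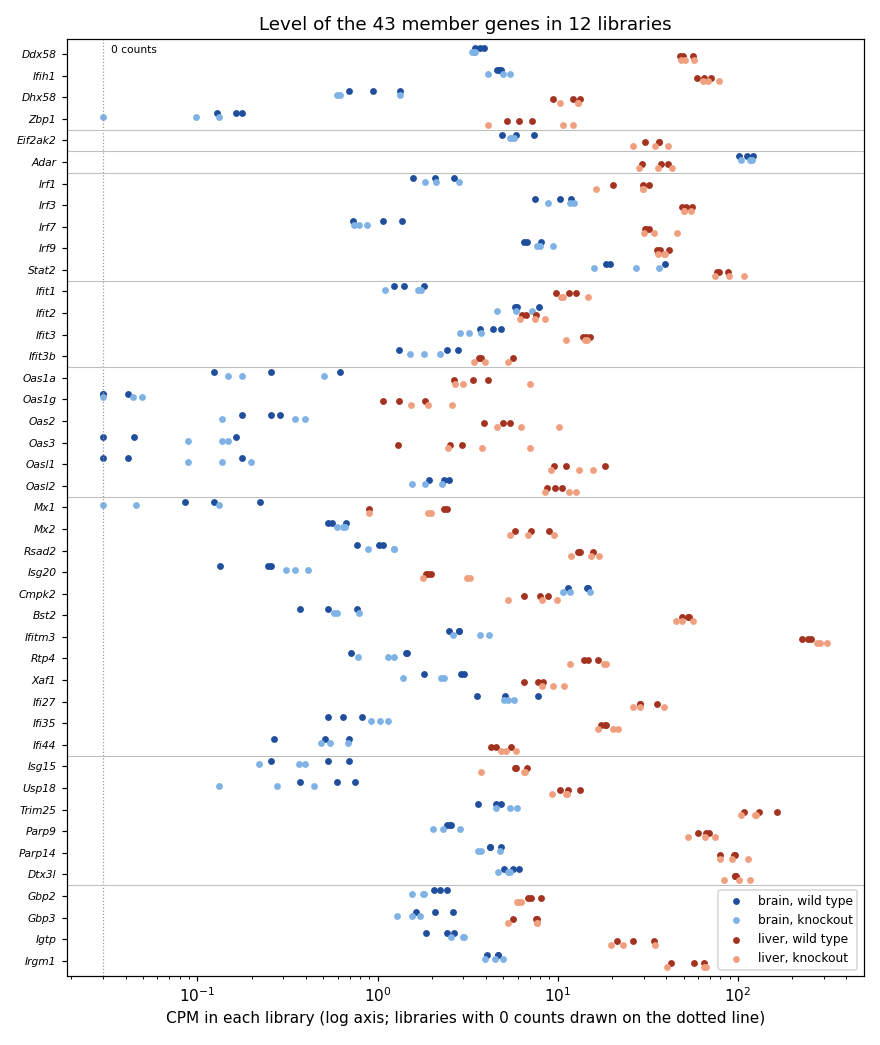
Level of each of the 43 members in each of the 12 libraries, in CPM on a log axis, with 1 point per library. Colours give tissue and genotype, horizontal lines separate the role groups, and libraries with 0 counts lie on the dotted line at the left edge. Liver points lie to the right of brain points for most genes, the points of Adar and Cmpk2 are reversed, and wild-type and knockout points of a tissue are interleaved for most genes.

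In the comparison of knockout with wild-type brain, 34 of the 43 members had enough counts to be tested. The other 9 (Zbp1, Oas1a, Oas1g, Oas2, Oas3, Oasl1, Mx1, Isg20 and Isg15) had between 0 and 17 counts in each brain library. No member was called at an adjusted p under 0.05 by the edgeR quasi-likelihood test, against a background of 0% (0 of 18075 genes). At an unadjusted p under 0.05 the count was again 0 of 34 members, where 0.675% of all genes passed. The DESeq2 Wald test also called 0 members, and 0 genes in all. The median log2 fold change of the members was -0.06, beside -0.01 for all genes, and 15 members lay above 0 and 19 below it (48.3% of all genes lay above).

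In liver all 43 members were tested. None was called by the edgeR test (background 0%, 0 of 15329 genes), and Ifitm3 alone had an unadjusted p under 0.05, where 3.5% of all genes did. The deleted gene Vaultrc5, at 33, 39 and 48 counts in wild-type livers and 0 in knockout livers, was not called either. A lack of calls in this test therefore does not exclude a difference. The DESeq2 Wald test called 0 members and 10 genes in all, and 2 members had an unadjusted p under 0.05 by it, where 2.77% of all genes did. Without the third knockout liver 6 members had an edgeR unadjusted p under 0.05 (7.23% of all genes), without the first knockout liver 2 (3.05% of all genes), and without the first wild-type liver 0 (3.11% of all genes). The median log2 fold change was 0.06, beside 0.01 for all genes, with 29 members above 0 and 14 below (51.3% of all genes lay above). That balance rested on single libraries. Without the second knockout liver, 18 members lay above 0 and 25 below and the median was -0.02. Without the third knockout liver, 39 lay above and 4 below and the median was 0.17.

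The difference between the liver and the brain knockout effect was tested for all 43 members, and 0 were called by edgeR, against 0% of 20141 genes. At an unadjusted p under 0.05 there were also 0 members (2.43% of all genes), and the DESeq2 Wald test called 0 members and 1 gene in all. Among the 34 members that could be tested in brain, the differences ran from -0.52 for Ifi35 to 0.87 for Usp18 on the log2 scale, and neither passed the test. The other 9 entered this test through their liver counts.

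**Figure D2:**
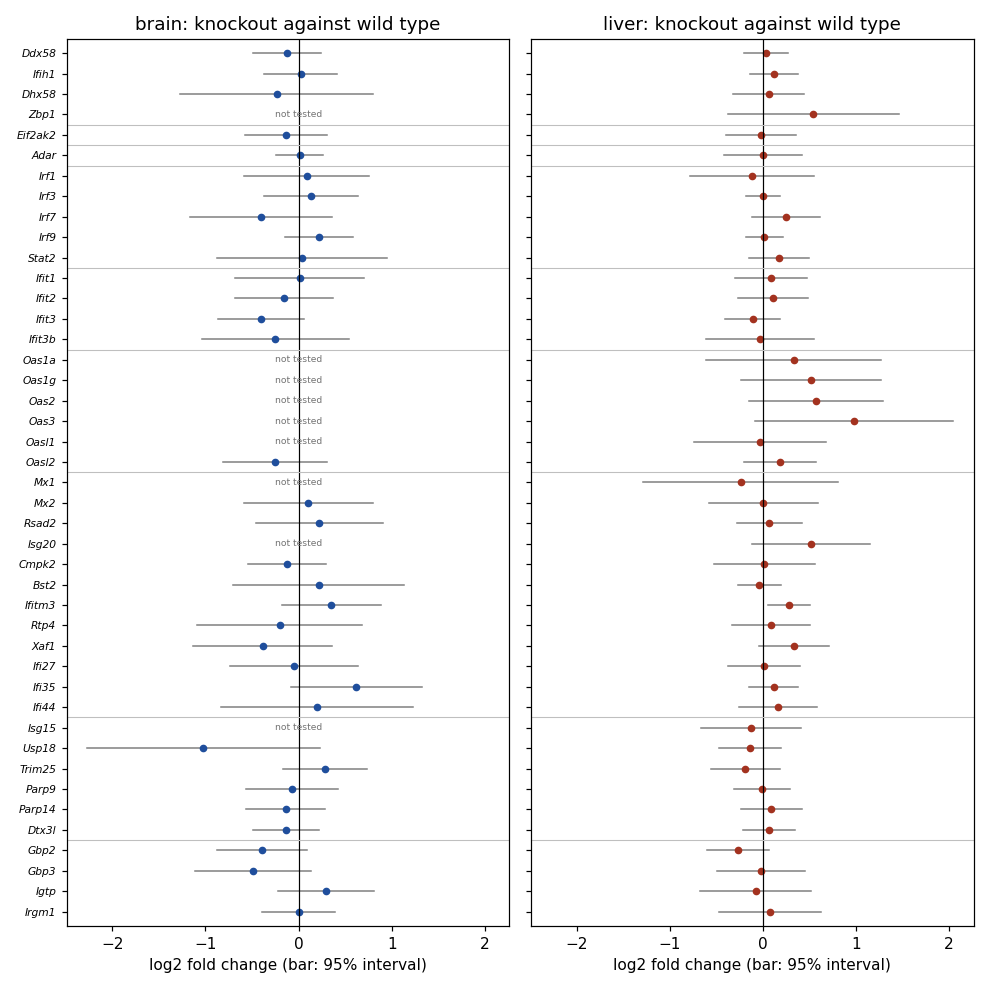
Log2 fold change of each member, knockout against wild type, in brain (left) and liver (right), from edgeR fits to 3 libraries per genotype. Bars are 95% intervals, members marked not tested had too few counts in brain, and in this plot 1 interval, that of Ifitm3 in liver, lies wholly on one side of 0.

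In wild-type animals 40 of 43 members were called higher in liver by edgeR, beside 34.7% of all 18850 genes tested, and 2 were called higher in brain, beside 43.9%. In knockout animals the counts were again 40 (background 35.2% of 18785 genes) and 2 (background 43.5%). The 9 members with too few brain counts for a test between genotypes passed the filter of these fits through liver, where they are high, and so were bound to differ. Of the other 34, 31 were called higher in liver and 2 higher in brain in each genotype. The 2 fits share no library, and the same 40 and the same 2 genes were called in each. The scale between tissues matters here: dividing by library totals in place of the TMM scaling moved the median of all genes from 0.21 to 1.05 in wild type and from 0.21 to 1.08 in knockout. With library totals 74.4% of called genes in wild type were higher in brain, in place of 55.8%, and in knockout 75.1% in place of 55.3%. Under that scaling 39 members were still called higher in liver in each genotype, beside 21.2% and 20.6% of all genes. Ifit2 then joined Adar and Cmpk2 as higher in brain, and Ifit3b was not called.

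**Figure D3:**
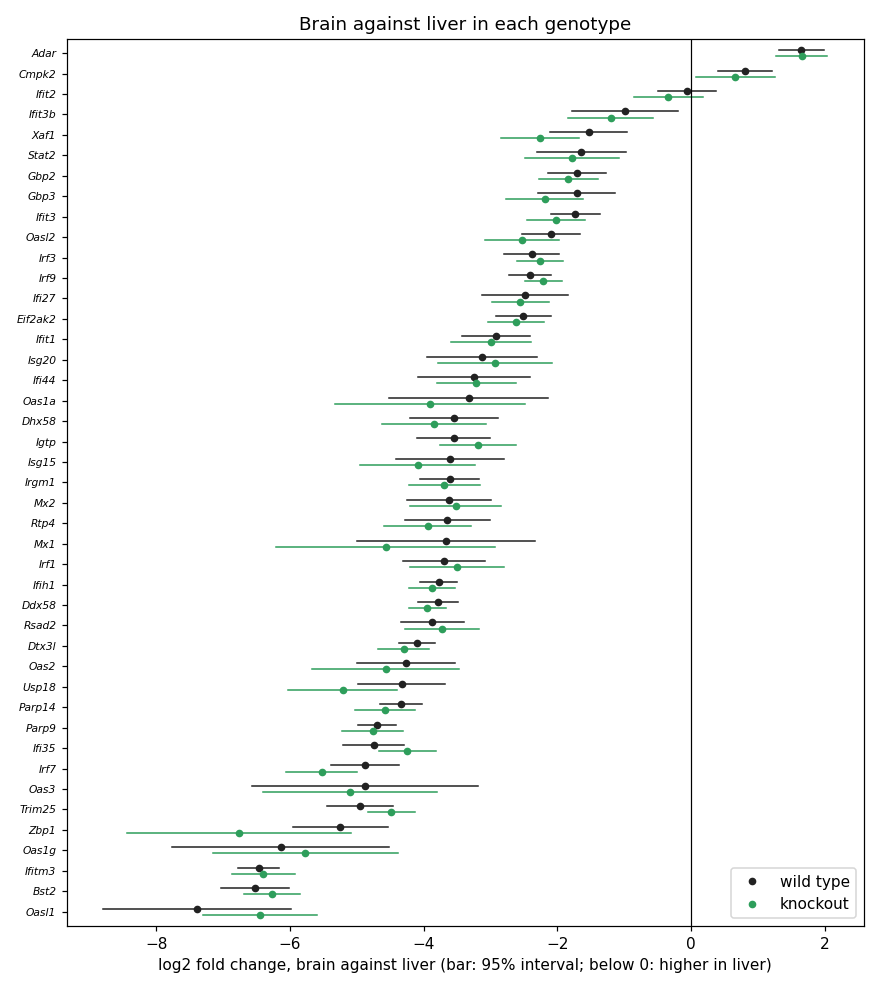
Log2 fold change of each member, brain against liver, in wild-type (black) and knockout (green) animals, with 95% intervals from edgeR fits to 3 libraries per tissue. Members are sorted by the wild-type value. Values below 0 are higher in liver: 40 members lie there with intervals clear of 0 in both genotypes, Adar and Cmpk2 lie above 0, and the intervals of Ifit2 include 0.

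The promoters of the members were searched for the interferon-stimulated response element. Since the members were chosen as interferon-stimulated genes, a high share with the element would follow from that choice. Its part in the difference between the tissues was not tested. RefSeq promoter windows on GRCm38.p6, from 250 bases before to 50 bases after the transcription start, were matched for 33 of the 43 members. The letters GAAA, followed after any 2 bases by GAAA again (either strand, overlaps allowed), were present in 18 of the 33 (54.5%), beside 1079 of the 27025 genes with a window (3.99%). The gamma-activated site TTCNNNGAA, which reads the same on both strands, was present in 10 of the 33 (30.3%), beside 9.55% of genes. The stretches below are a selection from the 18, chosen to show the near-copies Ifit3 with Ifit3b and Oas1a with Oas1g beside Eif2ak2 and further members with a match, written 5′ to 3′ on the strand of the gene, with every base covered by a match to the response element in capitals.
Ifit1: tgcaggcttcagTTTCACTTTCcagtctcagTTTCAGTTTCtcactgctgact
Ifit3: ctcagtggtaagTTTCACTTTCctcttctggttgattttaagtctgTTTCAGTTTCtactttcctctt
Ifit3b: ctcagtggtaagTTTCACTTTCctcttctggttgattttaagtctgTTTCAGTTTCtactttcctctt
Oas1a: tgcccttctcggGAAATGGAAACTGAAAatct
Oas1g: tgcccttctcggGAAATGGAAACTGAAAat
Oas3: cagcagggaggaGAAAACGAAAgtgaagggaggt
Isg15: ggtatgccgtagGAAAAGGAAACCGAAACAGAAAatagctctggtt
Bst2: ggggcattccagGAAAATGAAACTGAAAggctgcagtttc
Gbp2: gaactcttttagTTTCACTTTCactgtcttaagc
Eif2ak2: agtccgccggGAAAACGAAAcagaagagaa

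In GRCm38.p6 these lie at chr19:34640773-34640825 on the plus strand (Ifit1), chr19:34583361-34583428 plus (Ifit3), chr19:34607757-34607824 plus (Ifit3b), chr5:120907526-120907557 minus (Oas1a), chr5:120887614-120887643 minus (Oas1g), chr5:120777713-120777746 minus (Oas3), chr4:156200863-156200908 minus (Isg15), chr8:71537575-71537614 minus (Bst2), chr3:142620592-142620625 plus (Gbp2) and chr17:78882535-78882564 minus (Eif2ak2). Of those printed, all lie upstream of the RefSeq start except that of Eif2ak2, which begins 8 bases after it, in the transcribed part. Matches in Ddx58 (2 bases after the start), Ifih1 (32 bases after) and Ifitm3 (2 and 19 bases after) also begin beyond the start. Ifit1, Ifit3 and Ifit3b hold 2 separate matches each, and Oas1a, Oas1g and Bst2 hold 2 overlapping matches. Isg15 holds 3 overlapping matches. The Ifit3 and Ifit3b stretches were identical over 68 of 68 bases, and those of Oas1a and Oas1g over 30 of 30.

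All 18 members with the element were higher in liver in both genotypes, with a median log2 fold change (brain against liver) of -3.58 in wild type and -3.71 in knockout. Of the 15 with a window but no match, 12 were, with medians of -3.13 and -2.94, and the other 3 were Adar, Cmpk2 and Ifit2. The 10 members with no window were all higher in liver, with medians of -3.97 and -4.57. Each group holds members that passed the filter through liver and so were bound to differ. These are Oas1a, Oas1g, Oas3 and Isg15 among the 18, Oasl1 and Isg20 among the 15, and Mx1, Oas2 and Zbp1 among the 10. The near-copies Ifit3 with Ifit3b and Oas1a with Oas1g also count separately among the 18. The groups were therefore not compared with each other. A match of these letters describes the sequence only, and its absence says only that they are not in this window.

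The RNA sensors were all more abundant in liver. Ddx58 (chr4:40203773-40239828, minus strand, GRCm38), which encodes RIG-I, was at 3.72, 3.90 and 3.46 CPM in wild-type brain and 3.41, 3.48 and 3.35 in knockout brain. The liver values were 56.2, 47.8 and 49.8 CPM in wild type and 50.9, 57.4 and 48.4 in knockout. In brain the knockout and wild-type values overlapped by a single library, the liver groups overlapped too, and every liver library was far above every brain library. The knockout log2 fold change was -0.12 ± 0.15 (SE, n = 3 per genotype) in brain and 0.03 ± 0.10 in liver, and the brain value was -0.0812 without the second wild-type brain. Between tissues Ddx58 was 13.8-fold higher in liver in wild type (edgeR adjusted p = 1.52e-07) and 15.4-fold higher in knockout (edgeR adjusted p = 1.77e-07).

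Ifih1, which encodes MDA5, was at 4.74, 4.84 and 4.62 CPM in wild-type brain and 4.10, 4.98 and 5.42 in knockout brain. Its liver values were 71.0, 65.1 and 59.3 CPM in wild type and 68.3, 78.8 and 64.0 in knockout. The genotypes overlapped in both tissues, with log2 fold changes of 0.02 ± 0.16 in brain and 0.12 ± 0.11 in liver (0.0208 without the second knockout liver and 0.188 without the first wild-type liver), and Ifih1 was 13.7-fold higher in liver in wild type and 14.7-fold higher in knockout. Dhx58 encodes LGP2, a relative of both that lacks their signalling domain. It was at 1.33, 0.698 and 0.940 CPM in wild-type brain and 1.33, 0.617 and 0.597 in knockout brain. Liver levels were 12.2, 13.3 and 9.39 CPM in wild type and 12.9, 13.0 and 10.3 in knockout. The first brain library of each genotype was the highest, and the knockout log2 fold changes were -0.23 ± 0.44 in brain and 0.06 ± 0.16 in liver.

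Zbp1, a sensor of left-handed nucleic acids that can start necroptosis, was close to the floor in brain, at 0.177, 0.164 and 0.128 CPM in wild type and 0.0989, 0.132 and 0 in knockout. In liver it was at 6.08, 5.23 and 7.24 CPM in wild type and 10.7, 12.2 and 4.10 in knockout. The knockout livers held both the highest values and the lowest one, so the groups overlapped and the log2 fold change of 0.54 ± 0.38 did not pass the test. It was 0.25 without the second knockout liver and 0.88 without the third. Zbp1 was called lower in brain than in liver in both genotypes, with 0 to 4 counts in each brain library.

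Eif2ak2 (chr17:78852564-78882573, minus strand) was at 5.89, 4.92 and 7.35 CPM in wild-type brain and 5.74, 5.47 and 5.51 in knockout brain. The liver libraries held 36.5, 36.6 and 30.7 CPM in wild type and 34.7, 40.7 and 26.3 in knockout. The knockout values lay inside the wild-type range in brain and spanned it in liver. The log2 fold change was -0.13 ± 0.18 in brain, with a 95% interval from -0.57 to 0.30, and -0.02 ± 0.16 in liver, from -0.40 to 0.35. The liver effect minus the brain effect was 0.09 ± 0.25 on the log2 scale. Eif2ak2 was 5.69-fold higher in liver in wild type (edgeR adjusted p = 6.04e-06) and 6.14-fold higher in knockout (edgeR adjusted p = 7.0e-06). These values are RNA levels, and the kinase activity of PKR was not measured.

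Adar (chr3:89715022-89753446, plus strand) encodes the deaminase that changes adenosine to inosine in double-stranded RNA and thereby keeps the cell's own RNA from activating MDA5 and PKR. Like Cmpk2 and unlike the other members, it was called higher in brain, at 102, 121 and 113 CPM in wild-type brain and 105, 116 and 119 in knockout brain. Liver values were 37.2, 40.7 and 29.5 CPM in wild type and 36.0, 42.9 and 28.2 in knockout. Every brain library was above every liver library, by 3.13-fold in wild type and 3.15-fold in knockout (edgeR adjusted p = 2.23e-05 and 4.93e-05). The genotypes overlapped in both tissues, with log2 fold changes of 0.01 ± 0.11 in brain and 0.00 ± 0.18 in liver. The neuronal gene Chrnb2 lies on the other strand and overlaps 1365 of the 8118 exon bases of Adar (16.8%). It had 834 to 1118 counts in brain libraries and 21 to 57 in liver libraries, and its part in the Adar value was not tested. Exons of Dhx58, Eif2ak2, Irf1, Irf3, Irf7, Oasl1, Ifi35, Usp18 and Gbp2 also overlap a gene on the other strand, and those of Parp9 and Dtx3l overlap each other. Of the genes named here, Gbp2 had fractional counts in 2 libraries, and the others had whole counts in all 12. The strand setting of the counting is not given in the sources used here, and how reads of such pairs were assigned was not tested.

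The 5 transcription factors were all higher in liver in both genotypes, by log2 fold changes (brain against liver) between -1.65 for Stat2 and -4.88 for Irf7 in wild type. Irf7, the factor that amplifies interferon production, was 29.4-fold higher in liver in wild type and 46.0-fold higher in knockout, and Irf1, which also responds to interferon gamma, was 12.9-fold and 11.3-fold higher. Irf3, which is present before infection, and Irf9, the DNA-binding partner of STAT2, differed less, by 5.23-fold and 5.34-fold in wild type. Between genotypes the log2 fold changes of these 5 genes ran from -0.40 (Irf7) to 0.22 (Irf9) in brain and from -0.11 (Irf1) to 0.25 (Irf7) in liver. Stat2 varied most between brain libraries, at 39.2, 18.5 and 19.6 CPM in wild type and 36.6, 15.9 and 27.3 in knockout. The highest library of each genotype was the one numbered 1. Stat2 in liver was at 87.9, 76.8 and 78.3 CPM in wild type and 89.05, 108 and 74.6 in knockout. On this scale, but not in TPM (given below), every liver library was above every brain library. Counts of Irf9 were fractions in 5 libraries and whole once summed with those of the overlapping gene Rnf31.

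The Ifit proteins bind viral RNA ends and block its translation. Ifit3 and Ifit3b are neighbouring near-copies on chromosome 19, and 51.2% of the 50-base windows of Ifit3 exons also occur in Ifit3b. Their deposited values were fractions (more than 1e-06 from a whole number) in all 12 libraries, while their sum was a whole number, within rounding, in 12 of 12. Reads were thus divided between them and their separate values are uncertain. Ifit3 was at 4.87, 3.69 and 4.36 CPM in wild-type brain and 2.87, 3.22 and 3.77 in knockout brain. Ifit3b was at 2.79, 1.31 and 2.44 CPM in wild-type and 2.22, 1.81 and 1.52 in knockout brain. Summed over the pair, the brain libraries had 173, 122 and 159 counts in wild type and 103, 114 and 115 in knockout, and the liver libraries had 368, 349 and 346 in wild type and 377, 321 and 260 in knockout. Scaled for library size, the brain sums were 7.66, 5.01 and 6.80 CPM in wild type and 5.09, 5.03 and 5.28 in knockout, with overlap.

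The log2 fold change in brain was -0.40 ± 0.19 for Ifit3 alone (unadjusted p = 0.0786, edgeR) and -0.35 for the summed pair, with an edgeR adjusted p of 1.00 for both. In liver Ifit3 was at 15.1, 13.8 and 14.4 CPM in wild type and 14.5, 14.1 and 11.2 in knockout, and Ifit3b at 5.63, 3.64 and 3.77 in wild type and 5.32, 3.95 and 3.42 in knockout. The genotypes overlapped for both genes, with log2 fold changes of -0.11 ± 0.13 for Ifit3 and -0.03 ± 0.25 for Ifit3b. That of Ifit3 was -0.0103 without the third knockout liver and -0.168 without the second. Ifit3 was 3.33-fold higher in liver than in brain in wild type. Ifit3b was 1.98-fold higher (edgeR adjusted p = 0.0278), a call that was lost with library totals (log2 fold change -0.14, adjusted p = 0.708) and without the first wild-type liver (-0.78, adjusted p = 0.0961). In knockout it was 2.31-fold higher and lost its call with library totals (-0.33, adjusted p = 0.293).

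Ifit1 was 7.54-fold higher in liver in wild type and 8.00-fold higher in knockout, with knockout log2 fold changes of 0.01 ± 0.29 in brain and 0.09 ± 0.17 in liver. Its deposited counts were fractions in 10 libraries, and their sum with those of the paralogue Ifit1bl2 was whole. Ifit2 was the member without a call between tissues. It was at 5.76, 5.95 and 7.87 CPM in wild-type brain and 6.36, 6.68 and 7.55 in wild-type liver. In knockout animals it was at 4.60, 7.19 and 5.88 CPM in brain and 8.53, 7.44 and 6.17 in liver. The tissues overlapped in both genotypes, with log2 fold changes of -0.07 ± 0.19 in wild type and -0.34 ± 0.22 in knockout (edgeR adjusted p = 0.754 and 0.190). With a library left out they were -0.263 to -0.00307 and -0.525 to -0.172, with 0 calls. With library totals the direction turned, to 0.77 in wild type and 0.54 in knockout (edgeR adjusted p = 0.00684 and 0.0444).

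The Oas genes encode enzymes that answer double-stranded RNA by making the second messenger that activates RNase L, while the Oas-like genes Oasl1 and Oasl2 are related in sequence. All 6 were higher in liver in both genotypes, and 5 of the 6 had too few brain counts for a test between genotypes. Oas3 was at 1.30, 2.94 and 2.52 CPM in wild-type liver and 3.79, 7.04 and 2.47 in knockout liver. Oas2 was at 3.89, 4.98 and 5.45 CPM in wild-type and 4.63, 10.2 and 6.28 in knockout liver. In both genes the second knockout liver was the highest of the 6 libraries, and 1 of the other 2 knockout livers lay within the wild-type range in each gene.

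The log2 fold change in liver was 0.98 ± 0.45 for Oas3 (unadjusted p = 0.0661) and 0.57 ± 0.31 for Oas2 (unadjusted p = 0.103), with an edgeR adjusted p of 0.992 for both. Without the second knockout liver they were 0.47 and 0.19. In the neighbouring copies Oas1a and Oas1g, whose summed counts were whole in 12 of 12 libraries, the same library was again the highest. Oas1a was at 2.65, 3.39 and 4.09 CPM in wild-type liver and 2.68, 6.99 and 2.97 in knockout liver, and Oas1g at 1.07, 1.84 and 1.31 in wild type and 1.53, 2.59 and 1.91 in knockout. The pair had 66, 105 and 103 counts in wild-type and 80, 170 and 87 in knockout liver. Oas1a had a log2 fold change of 0.33 ± 0.40, which became -0.26 without the second knockout liver, and Oas1g one of 0.52 ± 0.32. Without the second knockout liver that of Oas1g was 0.28, and with a wild-type liver left out it was 0.36 (the first), 0.75 (the second) or 0.47 (the third). Over the 6 genes the median was 0.42 with 5 above 0, and without that library 0.16 with 4 above 0, while without the first knockout liver it was 0.64 with 5 above 0.

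In brain, Oas1a was at 0.620, 0.123 and 0.256 CPM in wild type and 0.148, 0.176 and 0.505 in knockout. Oas1g had 1 count over the 3 wild-type brains and 81 over the wild-type livers, a ratio of 100 per TMM-scaled library size with a 95% counting interval from 17.5 to 4003, and of 55.8 (9.74 to 2233) per library total. In knockout animals it had 2 and 109 counts, a ratio of 64.6 (17.5 to 540) on the TMM scale and of 35.7 (9.66 to 299) per library total. Oasl1, a repressor of IRF7 translation, was at 0.177, 0.0410 and 0 CPM in wild-type brain and 0.198, 0.0882 and 0.138 in knockout brain. Its liver values were 18.3, 11.1 and 9.49 CPM in wild type and 13.2, 15.6 and 9.14 in knockout. With 0 to 4 counts in each brain library, the size of its difference between the tissues is poorly fixed: the fitted wild-type log2 fold change (brain against liver) was -7.39, and lay between -8.92 and -6.88 with a library left out.

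Among the 12 other effectors, 2 genes for membrane proteins that stop virus entry or release had large differences between the tissues. Ifitm3, which blocks the fusion of virus with the endosome, was at 2.83, 2.83 and 2.48 CPM in wild-type brain and 2.62, 3.70 and 4.13 in knockout brain. Its liver values were 227, 254 and 244 CPM in wild type and 286, 313 and 276 in knockout. It was 88.4-fold higher in liver in wild type and 84.2-fold higher in knockout (edgeR adjusted p = 6.62e-08 and 2.02e-07). All 3 knockout livers were above all 3 wild-type livers, an order shared by 4.16% of all genes, while the brain groups overlapped. The log2 fold change was 0.28 ± 0.10 in liver (95% interval 0.06 to 0.51, unadjusted p = 0.0211, edgeR adjusted p = 0.992) and 0.35 ± 0.22 in brain (edgeR adjusted p = 1.00). The brain value was 0.21 without the third knockout brain and 0.52 without the first.

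Bst2 encodes tetherin, which holds budding virions at the cell surface. It was at 0.531, 0.369 and 0.769 CPM in wild-type brain and 0.791, 0.573 and 0.597 in knockout brain, and at 49.2, 53.5 and 52.7 CPM in wild-type liver and 49.1, 56.2 and 45.1 in knockout liver. The genotypes overlapped in both tissues. Bst2 was 91.9-fold higher in liver in wild type and 77.1-fold higher in knockout (edgeR adjusted p = 1.59e-07 and 1.51e-07).

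Cmpk2, a mitochondrial nucleotide kinase that neighbours the viperin gene Rsad2 on chromosome 12, went the other way. It was at 11.4, 14.5 and 14.7 CPM in wild-type brain and 10.7, 15.1 and 11.7 in knockout brain. Liver libraries were at 7.94, 8.82 and 6.50 CPM in wild type and 9.89, 8.23 and 5.33 in knockout. Every brain library was above every liver library of its genotype. The difference was 1.75-fold in wild type (edgeR adjusted p = 0.00328) and 1.58-fold in knockout (edgeR adjusted p = 0.0409). The knockout call was lost without the second or the third knockout brain (log2 fold change 0.49 and 0.71, adjusted p = 0.138 and 0.0721) and without the second or the third knockout liver (0.68 and 0.43, adjusted p = 0.0832 and 0.0950). Rsad2, whose product makes a chain-terminating nucleotide, was 14.6-fold higher in liver in wild type and 13.2-fold higher in knockout.

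Ifi35 had the smallest unadjusted p among the members in brain. It was at 0.531, 0.821 and 0.641 CPM in wild-type brain and 1.04, 1.15 and 0.918 in knockout brain, and all knockout values were above all wild-type values, as in 2.09% of all genes. The log2 fold change was 0.62 ± 0.30 (unadjusted p = 0.0756, edgeR adjusted p = 1.00). In liver Ifi35 was at 18.6, 18.2 and 17.4 CPM in wild type and 20.3, 21.5 and 16.8 in knockout, with overlap and a log2 fold change of 0.12 ± 0.11.

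Xaf1, a pro-apoptotic antagonist of XIAP, was at 7.77, 8.32 and 6.50 CPM in wild-type liver and 9.37, 10.8 and 8.19 in knockout liver. The exonuclease gene Isg20 was at 1.86, 1.89 and 1.99 CPM in wild-type and 3.26, 3.16 and 1.80 in knockout liver. In both, the third knockout liver fell among or below the wild-type livers. Set against the wild-type liver of the same number, Xaf1 was higher in every knockout liver, and Isg20 in the first and second but not the third. The log2 fold changes were 0.34 ± 0.16 and 0.52 ± 0.27 (unadjusted p = 0.0745 and 0.0936, edgeR adjusted p = 0.992 for both), and without the second knockout liver that of Xaf1 was 0.22. In brain Xaf1 had a log2 fold change of -0.39 ± 0.31. The remaining effectors Mx1, Mx2, Rsad2, Cmpk2, Bst2, Rtp4, Ifi27 and Ifi44 had liver log2 fold changes from -0.24 (Mx1) to 0.16 (Ifi44). Ifi27 was at 3.54, 5.13 and 7.78 CPM in wild-type brain and 5.04, 5.69 and 5.33 in knockout brain, and at 28.8, 35.4 and 28.8 CPM in wild-type liver and 28.6, 38.8 and 26.1 in knockout liver. The tissues were apart and the genotypes overlapped. Mx1 and Mx2, of the family of dynamin-like antiviral GTPases, had fractional counts in 6 libraries whose sum was whole. Mx2 is annotated as a polymorphic pseudogene.

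The 6 genes of the ISG15 and PARP systems were all higher in liver in both genotypes. Isg15 encodes the ubiquitin-like modifier, and Usp18 the protease that removes it and that also restrains the interferon receptor. Usp18 was at 0.753, 0.369 and 0.598 CPM in wild-type brain and 0.445, 0.132 and 0.276 in knockout brain, or 3 to 17 counts per library. In liver it was at 11.4, 10.3 and 13.3 CPM in wild type and 11.2, 9.24 and 11.1 in knockout. The groups overlapped in both tissues, and the log2 fold change was -1.02 ± 0.52 in brain (unadjusted p = 0.0936, edgeR adjusted p = 1.00) and -0.14 ± 0.14 in liver. Without the second knockout brain the brain value was -0.67. Trim25, a ubiquitin ligase that activates RIG-I, and the PARP9, PARP14 and DTX3L genes, whose products attach ADP-ribose and ubiquitin, were between 17.2-fold (Dtx3l) and 31.0-fold (Trim25) higher in liver in wild type. Trim25 was at 4.56, 3.61 and 4.83 CPM in wild-type brain and 4.55, 5.91 and 5.46 in knockout brain, and at 108, 132 and 166 CPM in wild-type liver and 125, 126 and 104 in knockout liver. Dtx3l was at 5.67, 6.11 and 5.04 CPM in wild-type brain and 4.65, 5.47 and 5.33 in knockout brain, and at 96.4, 96.7 and 97.2 CPM in wild-type liver and 101, 117 and 84.0 in knockout liver. The genotypes overlapped for both genes in both tissues, and the knockout log2 fold changes of these 4 genes lay between -0.19 and 0.28.

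The interferon-inducible GTPases act on the vacuoles of intracellular pathogens. Gbp2 was at 2.21, 2.05 and 2.44 CPM in wild-type brain and 1.78, 1.81 and 1.56 in knockout brain. Its liver levels were 8.11, 7.08 and 6.87 CPM in wild type and 6.05, 5.97 and 6.23 in knockout. It was the member for which all knockout libraries lay below all wild-type libraries in both tissues. That order was found in 2.14% of all genes in brain and in 5.45% in liver, each tissue taken alone. The share of all genes with it in both tissues was not computed, so how rare it is cannot be said. The log2 fold change was -0.39 ± 0.20 in brain (95% interval -0.88 to 0.09, unadjusted p = 0.0965) and -0.26 ± 0.14 in liver (-0.60 to 0.07, unadjusted p = 0.103), and neither passed the edgeR test (adjusted p = 1.00 and 0.992).

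Gbp3 was at 2.61, 1.64 and 2.09 CPM in wild-type brain and 1.73, 1.54 and 1.29 in knockout brain, with overlap and a log2 fold change of -0.49 ± 0.26, which was -0.31 without the first wild-type brain and -0.64 without the second. Gbp3 was at 7.60, 5.68 and 7.65 CPM in wild-type liver and 7.68, 7.66 and 5.27 in knockout liver, with overlap and a log2 fold change of -0.02 ± 0.20. Igtp and Irgm1, which encode immunity-related GTPases, had log2 fold changes of 0.29 ± 0.21 and 0.00 ± 0.17 in brain and -0.08 ± 0.25 and 0.08 ± 0.23 in liver. All 4 were higher in liver, from 3.27-fold (Gbp2) to 12.2-fold (Irgm1) in wild type. Counts of Igtp were fractions in 11 libraries and whole once summed with those of the overlapping Irgm2.

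Levels were compared between genes in TPM (counts per exon length, scaled to the same total in every library). In brain Adar was the most abundant member at 45.2 ± 3.75 TPM (SD, n = 6 libraries), followed by Ifitm3 at 14.8 ± 2.67, Stat2 at 14.3 ± 5.28, Ifi27 at 12.1 ± 3.35 and Cmpk2 at 10.2 ± 1.76. Adar stood apart, and each of the other neighbours in this order differed by less than the larger of their SDs. In liver Ifitm3 led at 475 ± 51.1 TPM, then Bst2 at 68.1 ± 2.81, Trim25 at 26.6 ± 4.65, Ifi27 at 25.5 ± 2.56 and Dtx3l at 20.8 ± 0.808. Ifitm3 and Bst2 were each clear of the next gene, while Trim25 and Ifi27 were not separated. The lowest means were those of Oas1g in brain (0.0321 ± 0.0354 TPM) and Mx1 in liver (0.548 ± 0.205 TPM), and in both tissues Oas3 (0.0448 ± 0.0306 in brain and 0.558 ± 0.289 in liver) did not differ from them beyond the SD. TPM lack the TMM scaling, and some tissue differences look otherwise in them. Stat2 reached 20.5 and 21.1 TPM in the first wild-type and first knockout brain, above all livers (15.4 to 19.8 TPM). Besides Adar and Cmpk2, mean TPM were higher in brain for Ifit2 (5.15 ± 1.03, liver 2.19 ± 0.233) and Ifit3b (3.28 ± 0.923, liver 2.59 ± 0.559).

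Genes around the members were described from fixed lists. Of 21 interferon genes, 14 had 0 counts in every library, and the other 7 (Ifna2, Ifna13, Ifna15, Ifnab, Ifne, Ifnz and Ifng) had at most 2 counts in a library, with 7 counts over all brain and 3 over all liver libraries. At this depth no interferon RNA level could be compared. Of 14 receptor and signalling genes, edgeR called 0 between genotypes in brain (13 tested) and 0 in liver (12 tested). Between tissues 9 were called higher in liver and Ptpn11, a phosphatase, higher in brain, in each genotype. The backgrounds for this list and those that follow are the shares of all genes already given: 34.7% (wild type) and 35.2% (knockout) higher in liver, and 43.9% and 43.5% higher in brain. The type I receptor chain Ifnar2 was at log2 fold changes (brain against liver) of -2.79 in wild type and -3.04 in knockout, and its partner Ifnar1 at -0.77 and -0.76. The interferon gamma receptor chain Ifngr1 was at -1.33 and -1.50, and Ifngr2 was not called, at -0.07 and 0.00. Ptpn6, another phosphatase, and the cytokine signalling inhibitor Socs3 showed -3.32 and -2.68 in wild type.

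For nucleic acid sensing and interferon induction, 22 of 24 names were matched, since the list held 2 names each for Tmem173 (Sting1) and Cgas (Mb21d1) and the table holds 1 of each. EdgeR called 0 of them between genotypes in either tissue, and 3 (Tmem173, Rnaseh2c and Tlr8) had an unadjusted p under 0.05 in liver, where 3.5% of all genes did. Between tissues 13 were called higher in liver and 2 in brain in wild type, and 16 and 1 in knockout. Mavs, the adaptor of RIG-I and MDA5, was at log2 fold changes of -4.31 and -4.50, and the kinase gene Ikbke at -4.59 and -4.62. Traf3, an adaptor ligase, was higher in brain, at 1.26 and 1.01.

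Of 26 PKR regulators and integrated stress response genes, 0 were called between genotypes by edgeR. Atf4, the transcription factor translated when eIF2 is phosphorylated, had an unadjusted p of 0.0180 in liver with a log2 fold change of -0.27 ± 0.09 (edgeR adjusted p = 0.992). It was at 108, 96.6 and 111 CPM in wild-type liver and 91.6, 89.4 and 78.7 in knockout liver, without overlap, an order found in 5.45% of all genes. Asns, a target of ATF4, was at 2.82, 5.18 and 4.14 CPM in wild-type liver and 1.84, 31.3 and 1.85 in knockout liver, so 1 library set its group mean. Between tissues 15 genes were called higher in liver and 4 in brain in wild type, and 16 and 2 in knockout. Higher in liver were the PKR inhibitor gene Dnajc3 (log2 fold change -2.74 in wild type), Atf5 (-4.82) and Trib3 (-5.86).

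Many members were high or low in the same liver library. In the second knockout liver 21 of 43 members had their highest value of the 6 livers, where 21.1% of all genes did, and in the third knockout liver 26 of 43 had their lowest, where 20.9% did. The median deviation of a member from the mean of its tissue was 0.21 in the former and -0.22 in the latter, in log2(CPM + 1). Both replicates numbered 3, wild type and knockout, were the 2 lowest livers for 18 members, beside 13.4% of all genes. In brain these median deviations lay between -0.01 and 0.05 in all 6 libraries.

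**Figure D4:**
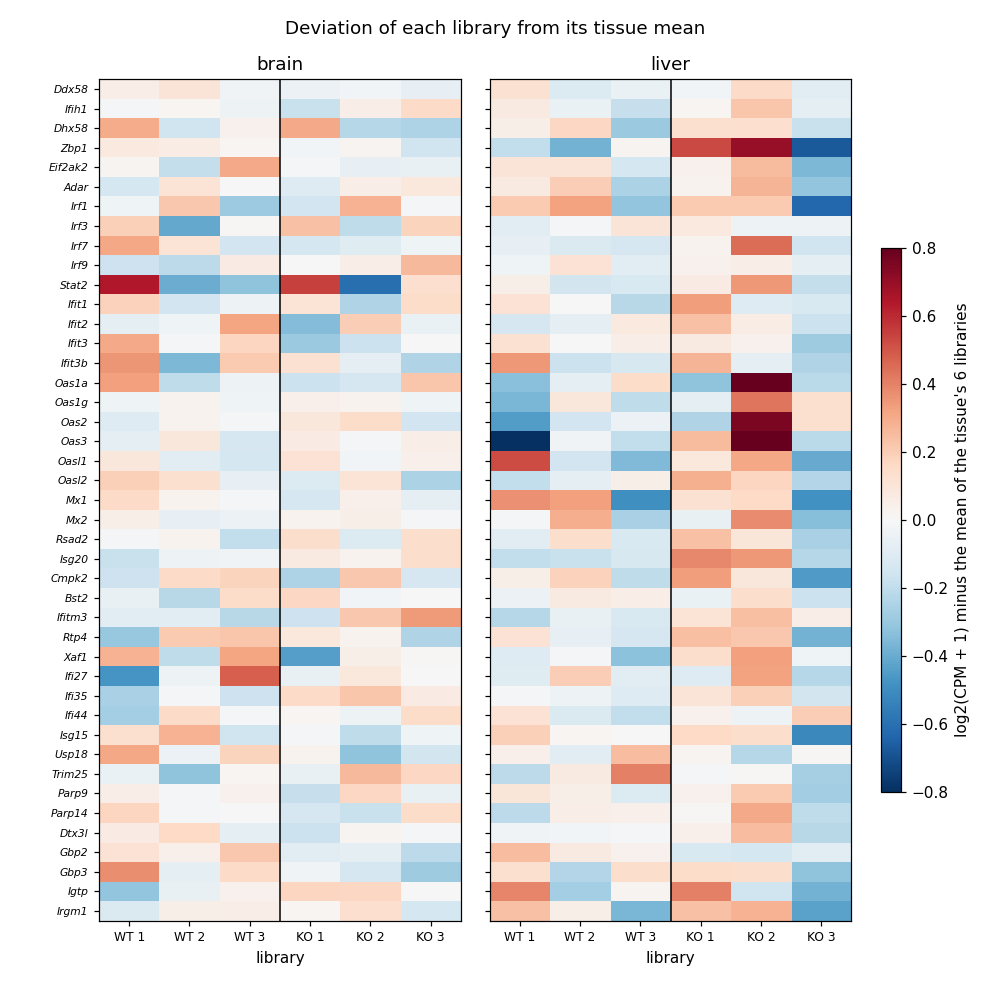
Deviation of each library from the mean of the 6 libraries of its tissue, in log2(CPM + 1), for the 43 members in brain (left) and liver (right). Red is above the mean, blue is below it, and colours saturate at 0.8 in either direction. The column of the second knockout liver is mostly red and that of the third mostly blue, while brain shows no such column.

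Markers of other cells moved with the second knockout liver. The summed level of 6 Kupffer cell markers (the macrophages of liver) was 356 CPM in that library and 139 to 194 CPM in the other 5, and that of 10 microglia and macrophage markers was 330 against 146 to 201 CPM. Neutrophil markers summed to 4.28 CPM there and to 0.368 to 1.35 CPM in the other livers, and in brain they were also highest in the second knockout library, at 5.29 CPM against 0.299 to 1.19 CPM. Endothelial markers did not stand out, at 241 CPM within a range of 209 to 264. The third knockout liver, where most members were low, was at 155 CPM for the Kupffer and 149 CPM for the macrophage list. Lymphocyte markers summed to 9.07 CPM in the second knockout liver and to 4.77 to 8.21 CPM in the others. Hepatocyte markers were lowest there, at 61996 CPM, and highest in the third knockout liver, at 93972 CPM. The part of these cells in the member values of these libraries was not tested. Between tissues, the macrophage list was at 117 to 194 CPM in brain and 146 to 330 CPM in liver, and the Kupffer list at 0 to 0.128 CPM in brain with Clec4f, Vsig4 and Marco at 0 in all 6 libraries. Choroid plexus markers varied from 2.91 to 54.5 CPM between brain libraries, within both genotypes.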

How the data were processed

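Total RNA was sequenced in 12 libraries, 3 per tissue and genotype, after TRIzol isolation, DNase I treatment, ribosomal RNA depletion and stranded library preparation, per the labels' protocols. For every gene, the authors deposited an expected count in each library, with no normalization. The submitters' processing notes name cutadapt, STAR and mm10, and the counting tool and its strand setting are not given in the sources used here. All 55450 genes matched GENCODE M21 (GRCm38). Counts were rounded and tested in R 4.3.3 with edgeR 4.0.16 (TMM, filterByExpr at a minimum count of 10 and a minimum total of 15, robust quasi-likelihood F-test), with Benjamini-Hochberg adjustment over all genes tested at 0.05. Each comparison was fitted on its own 6 libraries and the interaction on all 12. SE is the absolute log2 fold change over the square root of F. CPM use TMM sizes over 12 libraries. Fits were tested on simulated counts. The members and lists were chosen with earlier results of these data known. Values per library are given for the sensors, PKR, Adar and copied genes, for the 6 members of smallest p per knockout comparison, and for the members of largest tissue difference or highest level, up to 5 each. DESeq2 1.42.0, other scalings and filters, summed copies, a replicate block and each library left out were the alternatives. Titles number replicates 1 to 3 in each group. Deviations from the group means correlated between same-numbered livers of both genotypes at 0.23, 0.24 and 0.29, and between same-numbered brains at 0.59, 0.60 and -0.01. The labels state no pairing, so the main fits used none, and the replicate block was run as an alternative only. The p-values, SE and intervals given for the main fits thus leave out any pairing of same-numbered libraries. Some items of the lists are not reported here.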

Additional observations from a re-analysis of the deposited data

How the results depend on the processing

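The number of members called between knockout and wild type stayed at 0 in brain, in liver and for the difference between them under every alternative run, the DESeq2 Wald test and each left-out library included. With the replicate block, 0 members were called in each of these comparisons, and 4 members had an unadjusted p under 0.05 in liver (6.41% of all genes did), beside 1 without the block (3.5%), so the block changed no call of a member; over all genes it called 2 in liver, the DESeq2 Wald test 10, and the fit without a filter 4, beside 0. Correlations of same-numbered brain libraries were 0.59, 0.60 and -0.01, and with the block 1 member had an unadjusted p under 0.05 in brain (2.25% of all genes), beside 0 without it (0.675%) and 5 with all 12 libraries in one fit (1.39%). The median member log2 fold change in brain was -0.10 with a filter at a mean of 1 CPM, -0.035 with all 12 libraries in one fit, and -0.0812 to -0.0157 with a library left out. In liver it was -0.02 to 0.17 with a library left out. Members higher in liver numbered 36 to 40 in wild type and 38 to 40 in knockout over the alternatives, where a filter or summed copies removed members, and members higher in brain numbered 1 to 2 in knockout with a library left out. For the members chosen by the stated rule and Ifit2, 445 of 454 values under the other alternatives kept their direction and call, 2 lost a call and 7 turned. With library totals Ifit2 between tissues turned to 0.77 in wild type and 0.54 in knockout and was called in both. The other 5 that turned were not called: Adar in liver was 0.00 and became -0.0431 with library totals, -0.00597 without a filter, -0.00416 with the replicate block and -0.00478 with all 12 libraries in one fit, and Ddx58 in liver became -0.0100 with library totals. Of 348 values with a library left out, 5 lost a call and 18 turned, the latter all between genotypes and none of them called. In brain the ranges were -0.259 to 0.0403 for Eif2ak2, -0.0566 to 0.0742 for Adar, -0.0691 to 0.128 for Ifih1 and -0.704 to 0.0289 for Dhx58. In liver they were -0.19 to 0.12 for Eif2ak2, -0.16 to 0.14 for Adar, -0.0478 to 0.109 for Ddx58, -0.0704 to 0.166 for Dhx58, -0.21 to 0.20 for Ifit3b and -0.26 to 0.58 for Oas1a. The cause was not tested. Depth limits the 9 members that the filter left out of the brain test, with 0 to 17 counts in each brain library: without a filter they were fitted and 0 members were called.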
